A study of Mus musculus with 26 samples.

Results

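The Myc network described here is a set of 10 genes, namely Myc, Mycn, Mycl, Max, Mxd1, Mxd3, Mxd4, Mxi1, Mnt and Mlx, chosen by symbol from the 21119 gene symbols of a table of raw read counts from wounded mouse aorta. The rule of choice used symbols only, but earlier results of these data were known when it was made. All 10 genes were in the table. Of these, 9 passed the filter on low counts and were tested. Mycl did not pass, with 7 counts over all 26 libraries. The aortae of C57BL6/J mice, whose age is not given in the sources used here, were wounded by mechanical pressure, and RNA was taken either with a lysis buffer run through the vessel (the flush) or from the vessel wall that remained after it. The injured 48 h flush came from the abdominal aorta of 9 wounded mice, and the injured 3 h flush from the same segment of 5 other wounded mice. The uninjured flush came from the thoracic aorta of the same 9 mice at 48 h, and the tissue group was the abdominal wall left after the flush in 3 of those mice at 48 h. Injured and uninjured flushes therefore also differed in aortic segment, and the 3 h flush differed from the uninjured flush in time after wounding as well. These differences and the wound itself cannot be told apart.

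Total counts ran from 3904901 to 11982411 in the injured 48 h flushes, from 2657169 to 4346847 in the injured 3 h flushes, from 1755773 to 5294304 in the uninjured flushes and from 13853003 to 15560008 in the tissue libraries. Levels are given in CPM, read counts taken relative to a library size scaled by the TMM method. The 12 endothelial markers summed to 7390 to 11300 CPM at 48 h, 14100 to 16000 CPM at 3 h and 12200 to 14400 CPM in the uninjured flush, against 1810 to 2960 CPM in tissue, where 10 smooth muscle markers summed to 25700 to 26600 CPM. The injured 48 h flush of mouse E2A stood apart. Mitochondrial genes took 13.4% of its counts, against 2.95 to 4.92% in the other 8 flushes of that group, and it had the highest sums of the group for fibroblast (10400 CPM), macrophage (5510 CPM) and mesothelial (499 CPM) markers. In bulk RNA of this kind, fewer cells of a type and less RNA per cell cannot be told apart.

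Myc, Mycn and Mycl are transcription factors that bind DNA only as a pair with Max, and they activate genes of growth, ribosome production and metabolism. The Mxd proteins, Mxi1 and Mnt also pair with Max, compete for the same DNA element and recruit the Sin3 and histone deacetylase corepressors, so they are known as Myc antagonists. Mlx is a Max-like protein that pairs with some Mxd proteins, with Mnt and with the glucose-responsive Mondo proteins Mlxip and Mlxipl. Myc is a classical immediate response gene of cells leaving quiescence, and in endothelium it is known for roles in vessel growth.

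The element that Myc-Max, Mxd-Max and Mlx pairs bind is the E-box CACGTG, which reads the same on both strands. RefSeq promoter windows of 300 bases (250 bases before the start and 50 after it, build GRCm38.p6) were matched by symbol for 9 of the 10 members, all but Myc, in 11 windows. CACGTG stood in the windows of 4 of these 9 genes (Mxd4, Mnt, Mlx and Max), and in 7.15% of all 32851 windows of the same length. The first base of the element lay 219 bases before the start in Mxd4, 123 in Mnt, 40 in Mlx and 3 in Max. These stretches are shown because they hold the network's own element in genes of the network, with the element in capitals. They lie at chr5:34187909-34187944 (minus strand, Mxd4), chr11:74830786-74830821 (plus strand, Mnt), chr11:101087235-101087270 (plus strand, Mlx) and chr12:76962231-76962266 (minus strand, Max).
Mxd4: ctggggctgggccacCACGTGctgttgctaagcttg
Mnt: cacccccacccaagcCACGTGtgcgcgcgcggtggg
Mlx: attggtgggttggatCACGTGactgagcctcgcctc
Max: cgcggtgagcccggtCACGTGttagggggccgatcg
The letters TTTGGCGC or TTTCGCGC on either strand, a form of the element of the E2F cell cycle factors, were found in the window of Mycn alone among the members and in 0.813% of all windows. Mycn held 3 matches, of which 2 overlap, in chr12:12941982-12942034 on the minus strand, shown with the matches in capitals.
Mycn: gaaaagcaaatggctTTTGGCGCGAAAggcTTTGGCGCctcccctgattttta
A match is a description of the letters and not evidence of binding.

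Single members of the network moved in different directions after wounding. At 48 h, against the uninjured flush, 3 members were called higher (Myc, Mxd1 and Mxd3) and 1 lower (Mxd4) at a Benjamini-Hochberg adjusted p under 0.05 in edgeR's quasi-likelihood test, 4 of the 9 tested. In the same test 42.7% of all 13884 genes were called (24.6% higher and 18% lower). At 3 h, against the uninjured flush, 3 members were called higher (Myc, Mxd1 and Max) and 0 lower, where 27.1% of all genes were called (16.1% higher and 11.1% lower). In the lower direction 1 member had an unadjusted p under 0.05 in edgeR and DESeq2 called 0. At 48 h against 3 h, 1 member was higher (Mxd3) and 3 were lower (Max, Mxd1 and Mxd4), where 18.3% of all genes were called (9.7% higher and 8.59% lower). The share of members called at 48 h was near that of all genes, so the results below concern single members. Mxd3 passed the filter on low counts only through the injured 48 h flushes. Its calls as higher at 48 h are therefore no support beyond its counts. The median log2 fold change of the 9 tested members was 0.16 at 48 h and 0.06 at 3 h against the uninjured flush, beside 0.18 and 0 over all genes. Both comparisons use the same 9 uninjured libraries. With library totals in place of TMM, the share of all calls that were higher was 40.8%, against 59.2% with TMM, at 3 h versus uninjured, and 82%, against 53.1%, at 48 h versus 3 h.

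**Figure D1:**
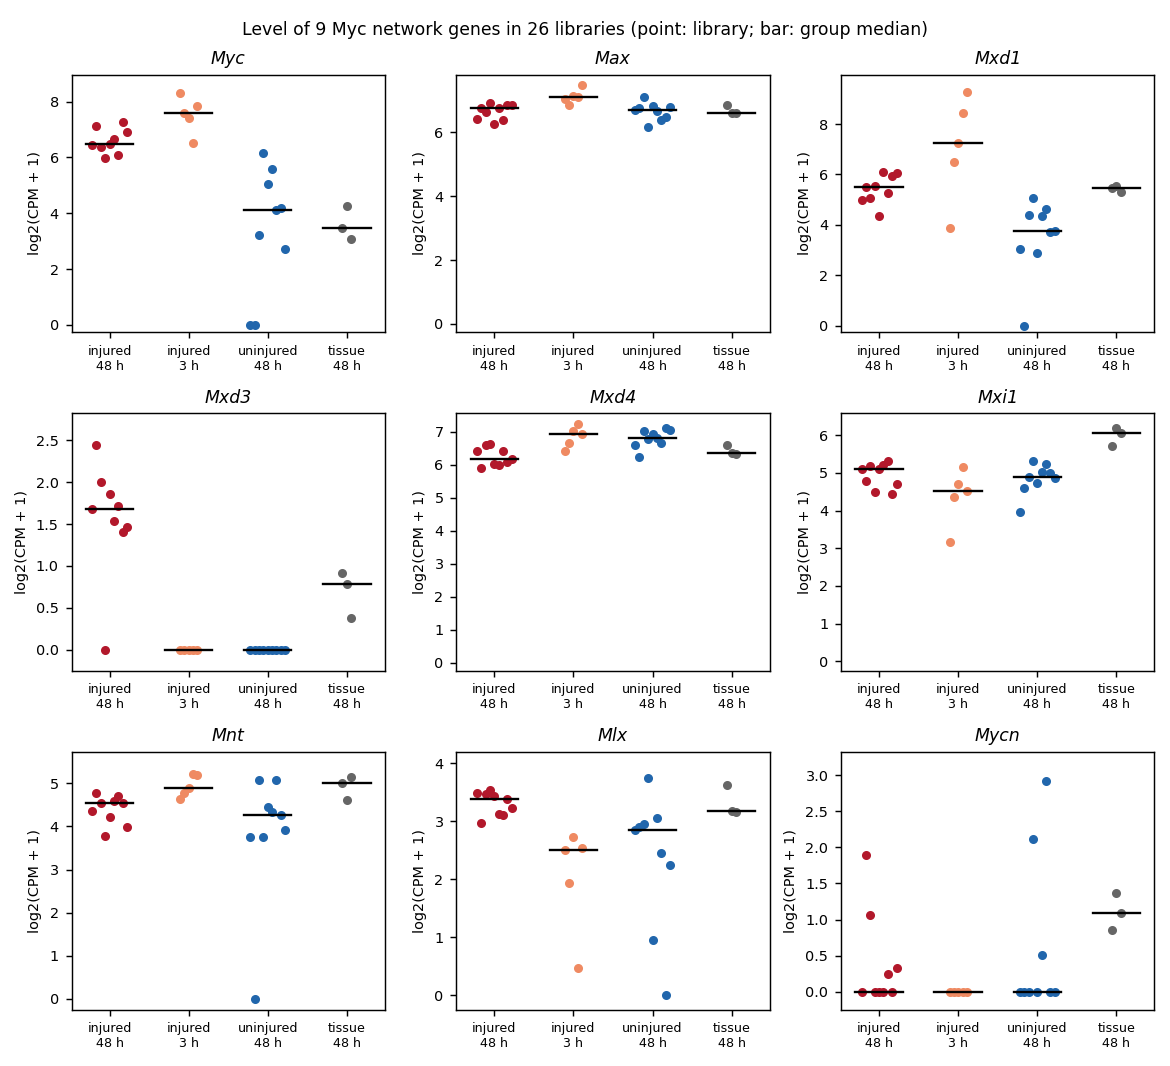
Level of each tested member in every library, as log2(CPM + 1), by group; each point is 1 library and each bar is the group median. Myc lies higher in both injured flush groups than in the uninjured flush, Mxd1 spreads from 13.5 to 610 CPM at 3 h, Mxd3 is at 0 in every 3 h and uninjured flush, and Mxi1 is highest in the 3 tissue libraries.

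Myc had 61.4 CPM in the lowest, 89.0 in the median and 154 in the highest of the 9 injured 48 h flushes. At 3 h the 5 flushes had 315 (C1A), 192 (C1B), 169 (C2A), 91.5 (C2C) and 230 (C3B) CPM. The uninjured flushes had 0 CPM at the lowest, 16.4 at the median and 70.1 at the highest, and the tissue libraries had 10.1, 18 and 7.37 CPM. Every 3 h flush lay above every uninjured flush, and 7 of the 9 injured 48 h flushes did. Myc (chromosome 15, 61985391 to 61990374, plus strand, GRCm38, GENCODE M21) was 4.45-fold higher at 48 h than in uninjured flushes (log2 fold change 2.16 ± 0.49 SE, edgeR adjusted p = 0.00104) and 8.91-fold higher at 3 h (3.15 ± 0.54, adjusted p = 8.69e-05). Between 48 h and 3 h the mean was 99.6 ± 31.5 and 199 ± 82 CPM (SD, n = 9 and n = 5), a log2 fold change of -1 ± 0.52 that missed the threshold (edgeR adjusted p = 0.19). With only these 2 groups in the fit the same difference passed (-1.02, adjusted p = 0.00674).

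The uninjured level of Myc differed by experimental batch. The 3 uninjured flushes of batch 2 had 70.1, 32.4 and 47.0 CPM, those of batch 1 had 0, 0 and 8.35 CPM, and those of batch 3 had 16.4, 17.2 and 5.58 CPM. The libraries at 0 were E1A and E1B, and E1B had the lowest total of all 26. Without these 2 libraries the log2 fold change was 1.82 ± 0.39 at 48 h (edgeR adjusted p = 0.000749) and 2.83 ± 0.43 at 3 h (adjusted p = 2.87e-05). Within batches 1, 2 and 3 it was 4.78, 0.77 and 3.09 at 48 h (edgeR adjusted p = 0.00935, 0.241 and 0.00607) and 6.05, 1.38 and 4.08 at 3 h (adjusted p = 0.00532, 0.0837 and 0.00421), where batch 3 holds 1 flush. The difference between batches in the 48 h change, a test added after the values were seen, had an unadjusted p of 0.0012 and an edgeR adjusted p of 0.353, in a fit where 0.0458% of 10913 genes passed. By mouse, Myc was higher in the injured than in the uninjured flush in 8 of 9 mice, and the exception was E2A at 61.4 and 70.1 CPM.

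**Figure D2:**
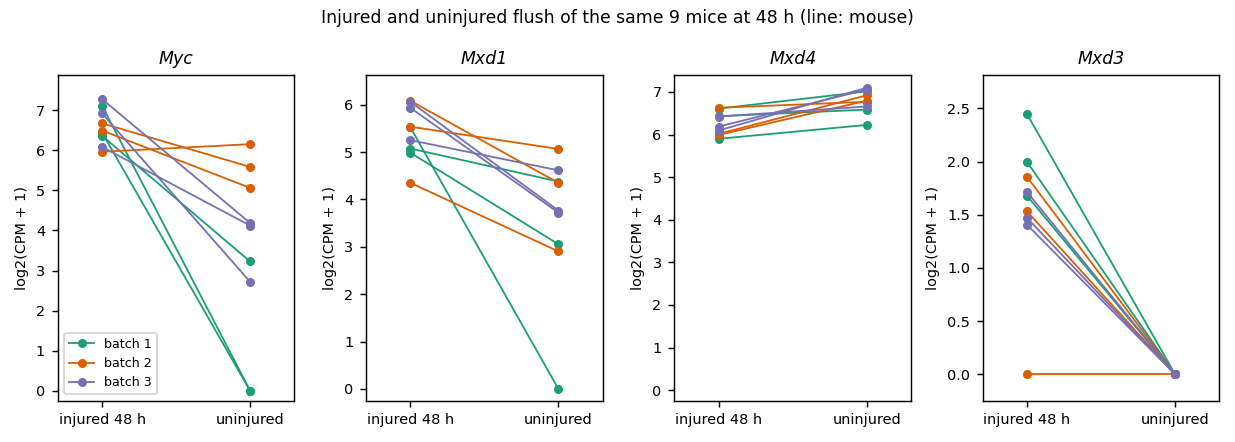
Injured (left) and uninjured (right) flush of the same 9 mice at 48 h for Myc, Mxd1, Mxd4 and Mxd3, as log2(CPM + 1); each line is 1 mouse, coloured by experimental batch. Mxd1 is higher in the injured flush in 9 of 9 mice, Mxd4 is lower in 9 of 9, and the Myc lines of batch 2 are the flattest.

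Leukocyte, platelet and erythroid markers also differed between the flush groups. Against the uninjured flush, 24.6% of all genes were called higher at 48 h and 16.1% at 3 h. Of 8 tested macrophage markers, 8 were higher at 48 h than in uninjured flushes, with sums of 570 to 5510 CPM against 67.8 to 222 CPM. Of 8 tested neutrophil markers, 7 were higher at 48 h and 8 at 3 h. They summed to 112 to 582 CPM at 48 h, 113 to 4840 CPM at 3 h and 34.7 to 188 CPM in the uninjured flush. Of 7 tested erythroid markers, 1 was higher at 48 h and 7 at 3 h. At each time 5 of 6 tested B cell markers and 1 of 8 tested T and NK cell markers were higher. Of 6 tested platelet markers, 4 were higher at each time. The 8 platelet markers summed to 129 to 536 CPM at 48 h, 562 to 1240 CPM at 3 h and 17.4 to 85.5 CPM in the uninjured flush. Medians of the platelet, neutrophil, erythroid, B cell and T and NK cell sums put the flush groups in the same order as Myc. The adipocyte medians (179, 78.4 and 7.52 CPM at 3 h, at 48 h and uninjured) took that order as well. So did the lymphatic endothelial medians (145, 129 and 71.3 CPM). In tissue the platelet median (359 CPM) lay above that at 48 h (276 CPM), while the Myc median was lowest in tissue. The neutrophil, erythroid, B cell and T and NK cell medians were lowest in tissue too (6.65, 4.35, 0.487 and 4.46 CPM). The adipocyte and lymphatic endothelial medians were not (235 and 144 CPM in tissue). Among the 48 h flushes, the one with the most Myc (E3B, 154 CPM) had the highest neutrophil and platelet sums (582 and 536 CPM) and a macrophage sum of 3150 CPM, and the one with the least Myc (E2A, 61.4 CPM) had the highest macrophage sum (5510 CPM) and the lowest platelet sum (129 CPM). Among the 3 h flushes, the one with the most Myc was C1A (315 CPM). It had the lowest neutrophil, macrophage and erythroid sums (113, 178 and 275 CPM) and a platelet sum of 972 CPM. Its B cell and T and NK cell sums were 176 and 200 CPM. The one with the least Myc (C2C, 91.5 CPM) had the lowest platelet sum (562 CPM). C2C also had the highest erythroid, B cell and T and NK cell sums (3170, 268 and 204 CPM). The part of leukocyte, platelet and erythroid RNA in the Myc level was not tested.

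Against the abdominal wall, Myc was 8.41-fold higher in the injured 48 h flush (log2 fold change 3.07 ± 0.78, edgeR adjusted p = 0.00294) and 16.8-fold higher in the injured 3 h flush (4.07 ± 0.85, adjusted p = 0.000447), and neither flush group overlapped the tissue libraries. The uninjured flush and tissue were not separated (21.9 ± 23.8 and 11.8 ± 5.55 CPM, SD, n = 9 and 3, edgeR adjusted p = 0.278).

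Mycn, the Myc relative of embryonic and neural progenitors, was scarce. It had counts in 4 of 9 injured 48 h flushes, 0 of 5 injured 3 h flushes, 3 of 9 uninjured flushes and 3 of 3 tissue libraries. Its highest levels were 2.71 CPM at 48 h (E1B) and 6.58 CPM in an uninjured flush (E3A), and tissue had 0.811, 1.59 and 1.13 CPM. No difference passed the threshold. Of the 47 uninjured counts, 37 were in E3A. At 3 h against the uninjured flush the edgeR adjusted p was 0.0601, and 0.0491 to 0.113 with 1 library left out, where without uninjured E2A or E3A, or injured 48 h E1B, Mycn gave no value because it no longer passed the filter. Mycl had 7 counts, all in 2 of the 3 tissue libraries, and 0 in all 23 flushes.

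Max, the shared partner, varied least of the 9 tested members over the 26 libraries (root mean square of centred log2 CPM 0.29). It had 76.6 to 120 CPM (median 107) at 48 h, 131, 115, 141, 136 and 180 CPM at 3 h, 71.3 to 137 CPM (median 104) in the uninjured flush and 116, 96.2 and 96.2 CPM in tissue. The ranges overlap in every pair of groups. Max did not pass at 48 h against the uninjured flush (log2 fold change -0.01 ± 0.11, edgeR adjusted p = 0.958). It was 1.38-fold higher at 3 h than in uninjured flushes (0.46 ± 0.13, edgeR adjusted p = 0.0107) and 1.39-fold lower at 48 h than at 3 h (-0.47, adjusted p = 0.0126). Both calls rested on 1 library and on the scaling. Without C3B the edgeR adjusted p was 0.0659 and 0.0661, and with library totals in place of TMM it was 0.101 and 0.199.

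Mxd1, an antagonist known from cells that stop dividing and differentiate and abundant in neutrophils, had the widest range of CPM of any member. It had 19.4 to 66.8 CPM at 48 h (median 44.9), 13.5, 88.4, 151, 347 and 610 CPM at 3 h in C1A, C1B, C2A, C2C and C3B, 0 to 32.5 CPM in the uninjured flush (median 12.6) and 43.2, 46.1 and 38.3 CPM in tissue. Of the 5 flushes at 3 h, 4 lay above every uninjured flush, and C1A lay inside the uninjured range. Mxd1 (chromosome 6, 86647042 to 86669161, minus strand) was 2.89-fold higher at 48 h (log2 fold change 1.53 ± 0.48, edgeR adjusted p = 0.0134) and 15.7-fold higher at 3 h (3.97 ± 0.55, adjusted p = 5.37e-06) than in the uninjured flush. It was 5.43-fold lower at 48 h than at 3 h (-2.44 ± 0.51, edgeR adjusted p = 0.00134). Without C3B these last 2 differences were 3.29 and -1.75 (edgeR adjusted p = 6.82e-05 and 0.0218), and within batches 1, 2 and 3 they were 2.41, 3.66 and 5.16 (adjusted p = 0.235, 0.0225 and 0.000777) and -0.46, -2.48 and -3.46 (adjusted p = 0.838, 0.116 and 0.00981). The 48 h difference from the uninjured flush was 1.96, 1.18 and 1.70 within the batches (edgeR adjusted p = 0.177, 0.305 and 0.0151).

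The 3 h flushes took the same order by Mxd1 and by neutrophil markers. The 9 neutrophil markers summed to 113 CPM in C1A, 342 in C1B, 678 in C2A, 1630 in C2C and 4840 in C3B. The calcium-binding protein gene S100a8 stood in the same order of mice, at 20.3, 64.4, 132, 353 and 862 CPM. C1A, with the lowest neutrophil sum, had Mxd1 at the uninjured level. At 48 h Mxd1 was higher in the injured flush in 9 of 9 mice. The part of neutrophil RNA in the Mxd1 level was not tested.

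**Figure D3:**
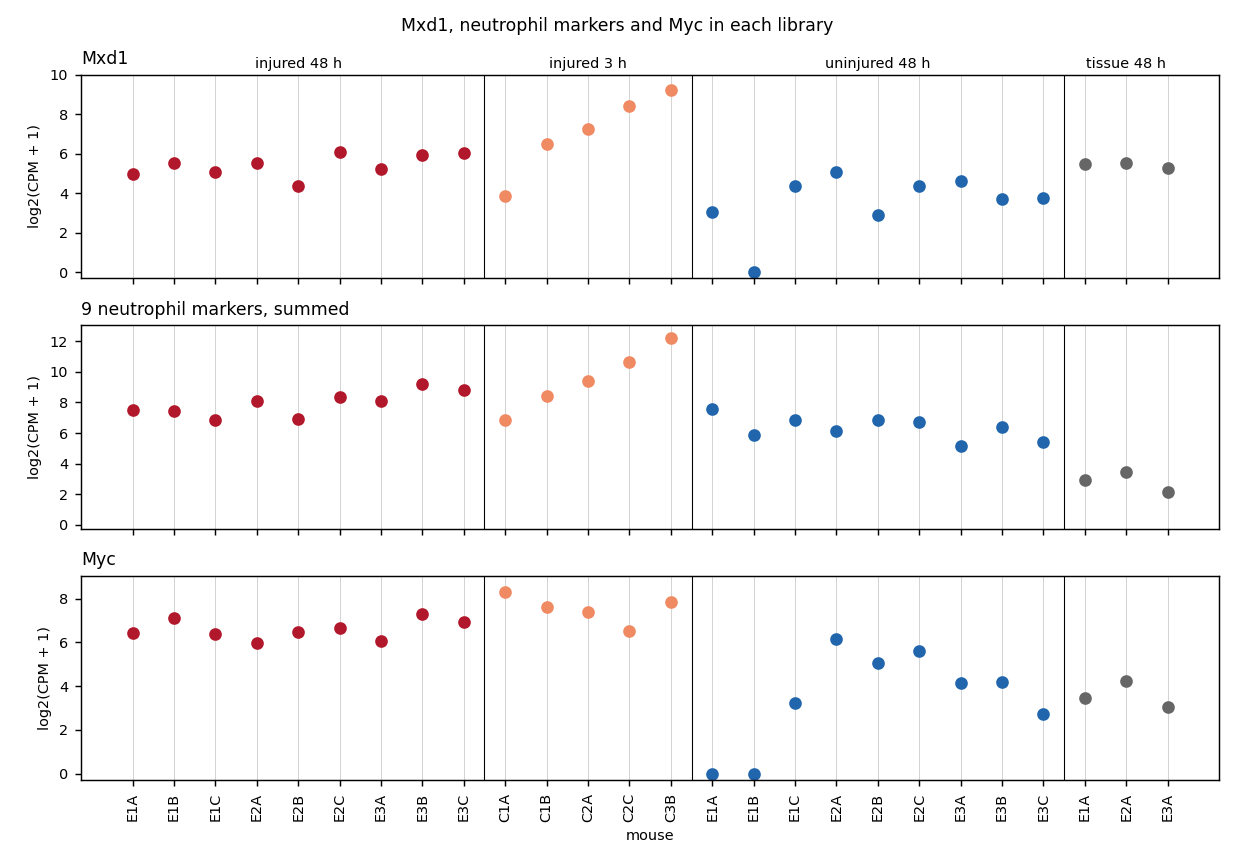
Mxd1 (top), the sum of 9 neutrophil markers (middle) and Myc (bottom) in each of the 26 libraries, as log2(CPM + 1); each point is 1 library, named by its mouse. The 5 flushes at 3 h run from 13.5 to 610 CPM for Mxd1 and from 113 to 4840 CPM for the markers in the same order of mice, and Myc does not take that order.

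Mxd3, the antagonist known from dividing cells, was detected only in some groups. It had 29, 46, 36, 0, 22, 18, 12, 8 and 14 counts in the 9 injured 48 h flushes (mice E1A, E1B, E1C, E2A, E2B, E2C, E3A, E3B and E3C), 0 in all 5 injured 3 h flushes and 0 in all 9 uninjured flushes. The tissue libraries, which were the deepest, had 11, 10 and 4 counts. In CPM it reached 4.45 at 48 h (median 2.2) and 0.893 in tissue. By the floor of 3 counts over the group, Mxd3 (chromosome 13, 55325168 to 55329823, minus strand) was at least 22-fold higher at 48 h than in uninjured flushes (edgeR adjusted p = 0.000146) and at least 12.6-fold higher than at 3 h (adjusted p = 0.00261). Mxd3 passed the filter on low counts only through the injured 48 h flushes, the group in which it was then called higher. These p-values are therefore no support beyond the counts themselves. It was higher in the injured flush in 8 of 9 mice, and E2A, the library that stood apart, had 0. Within single batches, with 3 flushes a group, the 48 h difference did not pass (edgeR adjusted p = 0.0567, 0.326 and 0.202), although the uninjured flushes were at 0 in each. Its end overlaps Prelid1 on the other strand, and the strand setting of the counting is not given in the sources used here. Prelid1 was detected in every group, with medians of 36.0, 22.0, 15.7 and 23.0 CPM at 48 h, at 3 h, in the uninjured flush and in tissue. It was also called higher at 48 h than in uninjured flushes (log2 fold change 1.10 ± 0.205, edgeR adjusted p = 0.000145). Against 3 h it missed the threshold (0.68, edgeR adjusted p = 0.0535). The part of shared reads in the Mxd3 counts was not tested.

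Mxd4 was the most abundant antagonist transcript per length in the uninjured flush and the 1 member called lower there at 48 h. It had 58.7 to 97.9 CPM at 48 h (median 71.8), 83.8, 100, 128, 150 and 120 CPM at 3 h, 73.8 to 136 CPM in the uninjured flush (median 110) and 95.4, 80.8 and 79.3 CPM in tissue. In the injured flush 5 of 9 libraries lay below every uninjured one. Mxd4 (chromosome 5, 34173883 to 34187720, minus strand) was 1.46-fold lower at 48 h than in uninjured flushes (log2 fold change -0.55 ± 0.13, edgeR adjusted p = 0.00135), and lower in 9 of 9 mice. Within batches 1, 2 and 3 it was -0.27, -0.59 and -0.70 (edgeR adjusted p = 0.425, 0.129 and 0.0385). It was 1.52-fold lower at 48 h than at 3 h (-0.61 ± 0.15, edgeR adjusted p = 0.0045), a difference that missed the threshold with library totals in place of TMM (-0.37, adjusted p = 0.0618). At 3 h it did not pass against the uninjured flush (0.06 ± 0.15, adjusted p = 0.814).

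Mxi1, also known as Mxd2, was higher in the vessel wall than in every flush. It had 20.6 to 39.0 CPM at 48 h (median 33.1), 8.04, 19.4, 25.3, 34.5 and 21.8 CPM at 3 h, 14.6 to 38.8 CPM in the uninjured flush (median 28.4) and 51.4, 71.4 and 65.3 CPM in tissue. Every flush lay below every tissue library. It was 2.08-fold lower in the injured 48 h flush than in tissue (log2 fold change -1.06 ± 0.27, edgeR adjusted p = 0.00268), 2.87-fold lower in the injured 3 h flush (-1.52 ± 0.30, adjusted p = 0.000272) and 2.18-fold lower in the uninjured flush (-1.12 ± 0.27, adjusted p = 0.00119). Between the flush groups no difference passed (edgeR adjusted p = 0.803, 0.244 and 0.196). Mnt, the antagonist found in both resting and dividing cells, had means of 20.4 ± 4.61 CPM at 48 h, 30.0 ± 5.51 at 3 h, 18 ± 10.3 in the uninjured flush and 29.8 ± 5.87 in tissue (SD, n = 9, 5, 9 and 3), and passed in 0 of the 6 comparisons in edgeR (adjusted p = 0.204 to 0.999, and 0 at an unadjusted p under 0.05). With only the 2 groups in the fit it passed at 48 h against 3 h and against tissue (adjusted p = 0.0309 and 0.0316).

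Mlx had 6.86 to 10.6 CPM at 48 h (median 9.46), 4.65, 2.81, 5.63, 0.383 and 4.81 CPM at 3 h, 0 to 12.5 CPM in the uninjured flush (median 6.18) and 11.4, 8.11 and 7.97 CPM in tissue. Every injured 48 h flush lay above every 3 h flush. The difference did not pass in edgeR (log2 fold change 1.29 ± 0.61, adjusted p = 0.148) and passed in DESeq2 (adjusted p = 0.0215) and in edgeR with only the 2 groups in the fit (1.26, adjusted p = 0.0409), on 1 to 19 counts per 3 h library. Mlx overlaps Psmc3ip on the other strand, and reads of the pair cannot be told apart without the strand setting. Psmc3ip was not called at 48 h against 3 h (1.45 ± 0.88, edgeR adjusted p = 0.268). It was higher at 48 h than in uninjured flushes (2.52 ± 0.76, edgeR adjusted p = 0.0101), where Mlx was not called (0.73 ± 0.49, adjusted p = 0.225). The Mondo partner Mlxip was 1.27-fold lower at 48 h (edgeR adjusted p = 0.0323) and 1.68-fold higher at 3 h (adjusted p = 0.000423) than in the uninjured flush, with 132 ± 20.9, 281 ± 25.2 and 167 ± 44.5 CPM at 48 h, at 3 h and uninjured (SD, n = 9, 5 and 9).

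**Figure D4:**
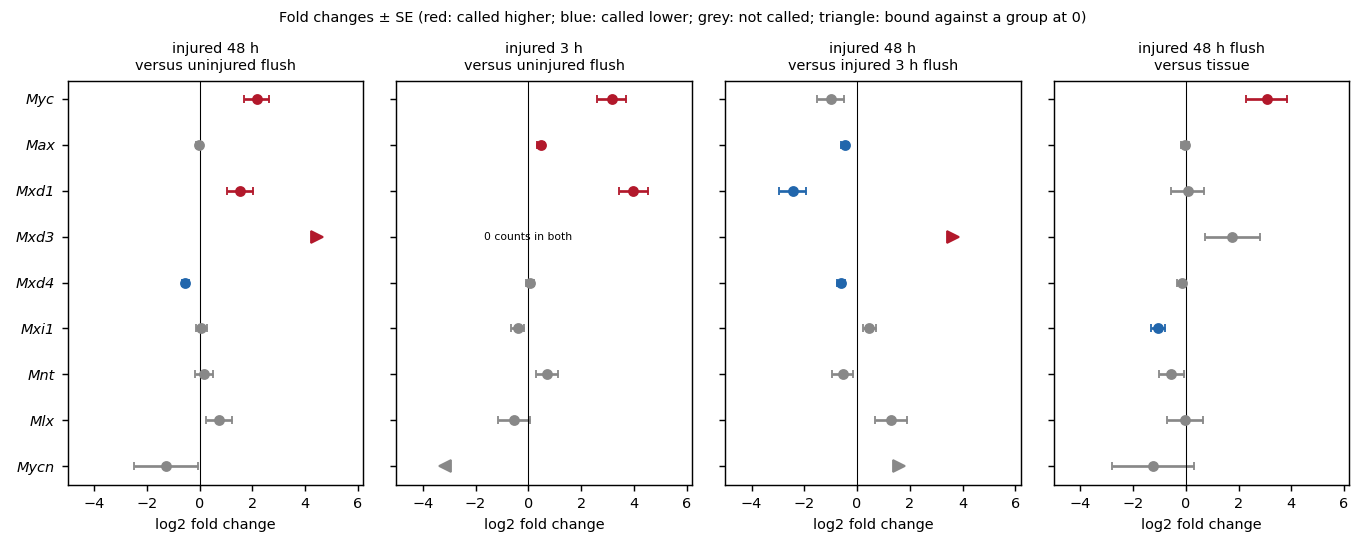
Log2 fold change of each tested member in 4 comparisons; points are edgeR estimates with bars of 1 SE, and triangles are bounds from a floor of 3 counts where 1 group was at 0. Myc is higher in both injured flushes than in the uninjured flush and higher at 48 h than in tissue, Mxd4 is lower at 48 h than in either other flush group, and Mxi1 is lower at 48 h than in tissue.

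Against the tissue wall, Myc and Mxi1 stood on opposite sides. Of 9 tested members, 1 was higher (Myc) and 1 lower (Mxi1) in the injured 48 h flush, where 35.5% of all genes were called (22% higher and 13.5% lower). In the injured 3 h flush 3 were higher (Myc, Max and Mxd1) and 2 lower (Mxi1 and Mxd3), where 42.7% were called (23.5% higher and 19.2% lower). In the uninjured flush 0 were higher and 2 lower (Mxi1 and Mxd3), where 50.1% were called (25.6% higher and 24.5% lower). In the higher direction 1 member had an unadjusted p under 0.05 in edgeR and DESeq2 called 0, while in the lower direction DESeq2 called 3, with Mxd1 the third (edgeR adjusted p = 0.0501). Mxd1 was 5.7-fold higher in the injured 3 h flush than in tissue (log2 fold change 2.51 ± 0.77, edgeR adjusted p = 0.0103), and 1.82 without C3B. Max there was at 0.45 ± 0.18 (edgeR adjusted p = 0.0411) and missed the threshold without any 1 of C2A, C2C, C3B or any tissue library (adjusted p = 0.0504 to 0.176). Mxd3 was at least 3.24-fold lower in the injured 3 h flush and at least 5.66-fold lower in the uninjured flush than in tissue (edgeR adjusted p = 0.0094 and 0.00193), and with the mouse as a block the uninjured difference had an adjusted p of 0.0688.

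Levels between genes are compared here per kilobase of exon. In the injured 48 h flush Myc (36.7 CPM per kb) stood above Max (28.2), with Mxd4 at 9.02, Mxd1 at 6.33, Mlx at 4.49 and Mxi1 and Mnt at 4.41 each. At 3 h Myc (73.4 CPM per kb) stood above Max (39.0) and Mxd1 (34.2), whose range there was 1.91 to 86.3. In the uninjured flush Max (28.3 CPM per kb) and Mxd4 (13.1) stood above Myc (8.05, range 0 to 25.8), and in tissue Max (28.6), Mxd4 (10) and Mxi1 (9.18) stood above Mnt (6.45), Mxd1 (6.01) and Myc (4.35). Myc and Max overlapped in range in both injured groups, as did Mlx, Mxi1 and Mnt with each other at 48 h, while at 3 h Mnt (5.12 to 7.78) lay above Mxi1 (1.18 to 5.05) and Mlx (0.192 to 2.82). The ratio of Myc to the summed antagonists Mxd1, Mxd3, Mxd4, Mxi1 and Mnt, per kb, had a median of 1.33 at 48 h (range 0.901 to 2.27), 1.34 at 3 h (0.423 to 6.4), 0.218 uninjured (0 to 1.0) and 0.116 in tissue (0.0849 to 0.208). The sum of the antagonists had a median of 24.9 CPM per kb at 48 h, 46.3 at 3 h, 24.4 uninjured and 32.0 in tissue. Its make-up differed by group and, at 3 h, by library. Mxd4 gave a median of 36.6% of it at 48 h (26.4 to 48.3%), 32.5% at 3 h (12.7 to 54.6%) and 60.8% uninjured (42.7 to 71.8%). Mxd1 gave a median of 25.6% at 48 h (13.7 to 36.7%), 46.2% at 3 h (10.6% in C1A to 77.5% in C3B) and 7.28% uninjured (0 to 17.9%).

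Genes that Myc is known to activate were mostly higher in the injured flush. Of 33 tested members of a list of 35, 28 were higher and 2 lower at 48 h than in uninjured flushes, with a median log2 fold change of 1.05, where 24.6% of all genes were higher and the median over all genes was 0.18. At 3 h 17 were higher and 1 lower, with a median of 0.70, where 16.1% of all genes were higher and the median was 0. Without C3B, the 3 h flush richest in neutrophil markers, 10 were higher, and with library totals in place of TMM 11 were. Over all genes, 1610 were higher at 3 h with library totals, against 2230 with TMM. Without uninjured E1A and E1B the count at 48 h was 27, and within batches 1, 2 and 3 it was 14, 4 and 13. The shares of all genes called higher in the fits with libraries left out are not given here. The changes in these counts are therefore not a result about the list. Slc7a5, the light chain of a neutral amino acid transporter, had 1892 counts over the injured 48 h flushes, 293 at 3 h, 0 in all 9 uninjured flushes and 607 in tissue, at least 225-fold higher at 48 h and at least 171-fold higher at 3 h (edgeR adjusted p = 1.32e-07 and 4.83e-07). The nucleolar gene Npm1 had 227 ± 49.1 CPM at 48 h, 112 ± 19.4 at 3 h and 95 ± 16.2 uninjured (SD, n = 9, 5 and 9), higher at 48 h than in uninjured flushes (1.25 ± 0.12, edgeR adjusted p = 1.86e-08) and not past the threshold at 3 h (0.23, adjusted p = 0.232). The transferrin receptor gene Tfrc was 15.7-fold higher at 48 h (edgeR adjusted p = 6.84e-07) and Odc1, which starts polyamine synthesis, 2.92-fold higher at 3 h (adjusted p = 8.01e-05). The 2 lower genes at 48 h were Slc3a2, the partner chain of Slc7a5 (-0.41), and the cyclin gene Ccnd2 (-0.24). Without injured E1B, E2A or E3B, or without uninjured E1C, E2A, E2B or E2C, 1 gene was lower. The lower gene at 3 h was the phosphatase gene Cdc25a, with 0 counts there and 29 in the uninjured flush, and it was not called without any 1 of the 5 flushes at 3 h. Fbl, a nucleolar gene used by most cells, did not pass the filter, with 7 counts at 48 h, 7 at 3 h, 0 uninjured and 21 in tissue. The cause of these low counts was not tested, and a count of 0 here need not mean that a transcript was absent.

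Of 8 tested genes that Myc is known to repress, 4 were higher and 1 lower at 48 h, and 4 higher and 0 lower at 3 h (1 lower at an unadjusted p under 0.05 in edgeR, and 0 in DESeq2), where 24.6% and 16.1% of all genes were higher and 18% and 11.1% lower. Cdkn1a, which encodes the cell cycle inhibitor p21 and is also a target of p53, had 55.5 ± 14.7 CPM at 48 h, 256 ± 49.4 at 3 h and 17.6 ± 10.3 uninjured (SD, n = 9, 5 and 9), a log2 fold change of 1.64 ± 0.23 at 48 h and 3.85 ± 0.26 at 3 h (edgeR adjusted p = 5.09e-06 and 8.48e-11). Ndrg1, a stress and hypoxia gene named for its repression by Mycn, was 2.37-fold higher at 3 h (edgeR adjusted p = 2.26e-09) and lower at 48 h (-0.29, adjusted p = 0.0126), with 182 ± 29.2, 527 ± 60.4 and 222 ± 22.6 CPM at 48 h, at 3 h and uninjured. Gas1 and Cebpa were higher at 48 h (4.04 ± 0.88 and 4.05 ± 0.97, edgeR adjusted p = 0.000771 and 0.00219), and tissue had 98.0 ± 9.45 and 7.7 ± 0.942 CPM of them (SD, n = 3), with markers of wall cells also higher in the injured flush (6 of 8 fibroblast and 7 of 10 smooth muscle markers). The part of wall cells in these levels was not tested.

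**Figure D5:**
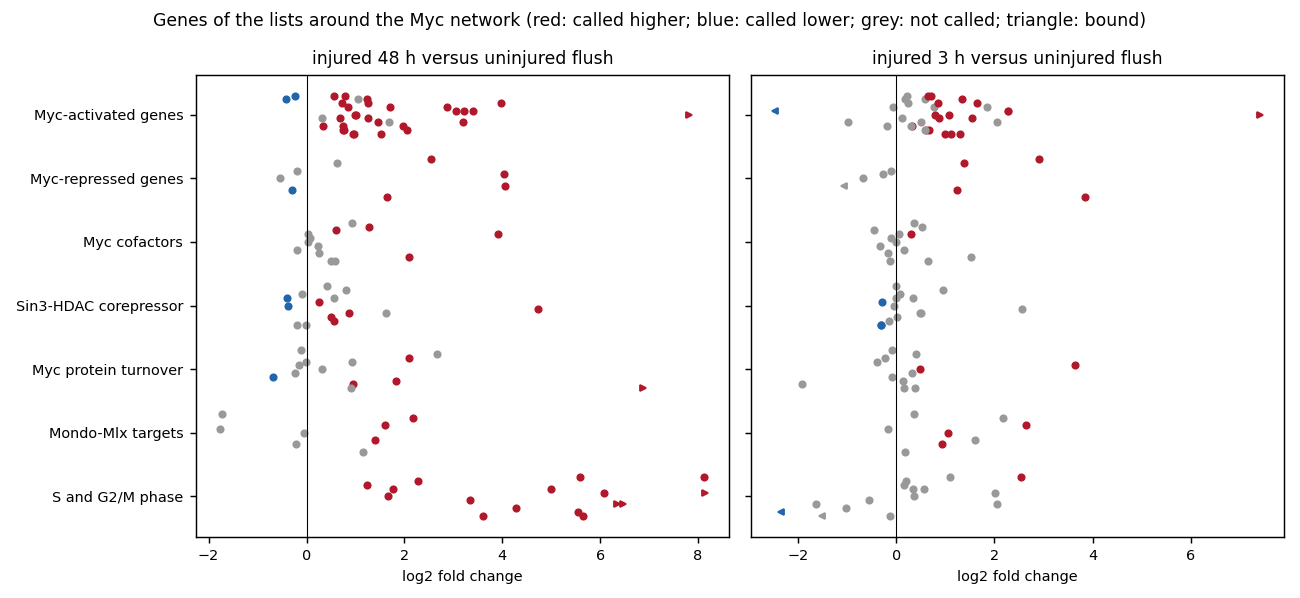
Log2 fold changes of the tested genes of 7 lists around the Myc network, injured 48 h (left) and injured 3 h (right) against the uninjured flush; each point is 1 gene, triangles are bounds where 1 group was at 0, and genes at 0 in both groups are left out. All 16 S and G2/M genes are called higher at 48 h and 1 at 3 h, while 28 and 17 of 33 Myc-activated genes are.

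Cell cycle genes were higher at 48 h. Of 16 genes of S and G2/M phase, 16 were higher at 48 h than in uninjured flushes and 16 were higher at 48 h than at 3 h. The medians were 5.27 and 5.14, and 24.6% and 9.7% of all genes were higher in these comparisons. At 3 h against the uninjured flush 1 was higher (Ccnb2) and 1 lower (Mcm5), where 16.1% of all genes were higher and 11.1% lower. Neither was called without C3B. Ccnb2 had 12 counts at 3 h and 3 uninjured. The proliferation marker Mki67 had 457 ± 102 CPM at 48 h, 34.3 ± 19.6 at 3 h and 37.9 ± 18.3 uninjured (SD, n = 9, 5 and 9). Myc and Mxd1 were called higher at 3 h, when 14 of these 16 genes were not called, while Mxd3 was found at 48 h and not at 3 h. Aurka, a mitotic kinase that also stabilises Myc family proteins, had 991 counts at 48 h, 0 at 3 h and 0 uninjured, and Cdk1 had 2367, 1 and 0. Tissue had 16 counts of Aurka and 4 of Cdk1. Both genes could pass the filter on low counts only through the 48 h flushes. Their calls as higher at 48 h are therefore no support beyond the counts. Which other genes of the list passed in this way was not looked at.

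Transcripts of genes that act with the network were called at shares not far from those of all genes, which at 48 h were 24.6% higher and 18% lower, and at 3 h 16.1% higher and 11.1% lower, so these counts say little about the lists. Of 13 Myc cofactors, 4 were higher at 48 h, namely the acetyltransferase gene Kat2a (1.28 ± 0.29, edgeR adjusted p = 0.00114), the ATPase genes Ruvbl1 and Ruvbl2 (2.10 and 0.60, adjusted p = 0.0105 and 0.0173) and Zbtb17, the partner Miz1 through which Myc represses (3.92 ± 1.08, adjusted p = 0.00544). Of 14 genes of the Sin3 and histone deacetylase corepressor, 5 were higher and 2 lower at 48 h, with Rbbp7 at 0.57 ± 0.09 and Arid4b at -0.41 ± 0.10 (edgeR adjusted p = 3.54e-05 and 0.00179), and 3 were lower at 3 h (Sin3a, Arid4a and Hdac2). Without uninjured E1A and E1B the 48 h counts were 3 and 1. Without injured E1B or E1C, or uninjured E2A or E3C, 1 gene was lower at 48 h, and without C1A, C1B or C2C 1 gene was lower at 3 h. Of 13 genes of Myc protein turnover, 4 were higher and 1 lower at 48 h. The fallen gene was Fbxw7, a ubiquitin ligase receptor that marks Myc for degradation, with 67.3 ± 17.0 CPM at 48 h and 108 ± 27.2 uninjured (SD, n = 9 each, -0.68 ± 0.15, edgeR adjusted p = 0.00105). At 3 h the kinase gene Pim1 had 21.5 ± 7.84 CPM, against 1.54 ± 2.32 uninjured (SD, n = 5 and 9, 3.65 ± 0.79, edgeR adjusted p = 0.0011).

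Of 5 further network genes, 3 were lower at 48 h, where 18% of all genes were, namely Mlxip, Mga (-0.62 ± 0.09, edgeR adjusted p = 1.27e-05) and Mycbp2 (-0.29 ± 0.08, adjusted p = 0.00675). Mga, a large Max partner that acts as a repressor, was lower at 3 h as well, with 243 ± 32.9 CPM at 48 h, 254 ± 35.7 at 3 h and 373 ± 58.1 uninjured (SD, n = 9, 5 and 9). Of 8 tested targets of the Mondo and Mlx pair, 3 were higher at each time, where 24.6% of all genes were at 48 h and 16.1% at 3 h. The arrestin-like gene Arrdc4 was higher at both (1.61 ± 0.46 at 48 h and 2.64 ± 0.52 at 3 h, edgeR adjusted p = 0.00686 and 0.000372), and its relative Txnip was higher at 3 h (1.05 ± 0.18, adjusted p = 7.67e-05) with medians of 1130 CPM at 3 h, against 567 CPM uninjured. Without uninjured E1A and E1B, 1 of the 8 was higher at 48 h, and the share of all genes in that fit is not given here.

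The genes whose profile over the 26 libraries lay nearest to that of Myc, by the root mean square difference of centred log2 CPM, were Laptm5 (1.12), Tgif1 (1.15), Rnd1 (1.21), Cd52 (1.24) and Tnfrsf21 (1.25), beside 2.51 for the spread of Myc itself. Laptm5 and Cd52 are leukocyte genes. Laptm5 had medians of 102 CPM at 48 h, 68.5 at 3 h, 7.73 uninjured and 22.7 in tissue. The GTPase gene Rnd1 had 17.5, 45.3, 1.36 and 2.46 CPM in the same groups, with the higher value at 3 h as for Myc. Among the nearest to Mxd1 were Rin3 and Slc2a1 (0.963 and 1.07, beside 1.97), to Mxd3 Pcna-ps2 and Panx1 (0.475 and 0.532, beside 1.39), to Mxd4 Timp2 (0.248, beside 0.368) and to Mxi1 Ctps2 and Zfp652 (0.344 and 0.346, beside 0.615). The nearest to Max were Wdr26 and Ubl4a (0.197 and 0.207, beside 0.29), to Mnt Fam53c and Vps37c (0.445 and 0.53, beside 1.26), to Mlx Tstd2 and Emc6 (0.769 and 0.77, beside 1.24) and to Mycn Tfap4 and Abl1 (0.982 and 1.01, beside 1.29). Every gene named as nearest to Myc, Mxd1 or Mnt had 0 CPM in its lowest uninjured flush, as had Myc, Mxd1 and Mnt themselves. The part of such counts of 0 in the likeness was not tested.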

How the data were processed

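Levels came from the authors' deposited table of raw counts, whole-number reads per gene symbol, in which 2407 of 21119 symbols were at 0 everywhere and 23 were spreadsheet dates. The tools listed per the submitters' processing notes are HISAT2 2.0.3, HTSeq and DESeq2 1.14.1, with build GRCm38 and no order or role. The headers write 0 h where the labels give 3 h. The other deposited tables were not used. The test was the quasi-likelihood test of edgeR 4.0.16, run in R 4.3.3 (TMM, default filter by group, all 26 libraries, no covariate, two-sided, Benjamini-Hochberg over 13884 genes, threshold 0.05), after a test on simulated data. Standard errors were taken from the F statistic, and log2 CPM used a prior count of 2. Lengths are of merged exons in GENCODE M21. No pair of libraries of a group matched within sampling noise (smallest chi-square per degree of freedom 7.18). Each library was 1 mouse. Counting floors cover counting error only, since no molecular identifiers are described. At 48 h the mouse pairs injured and uninjured flushes by the labels, though the correlation of paired deviations ran from -0.127 to 0.207 and passed 0.1 in 3 of 9 pairs, and a fit with the mouse as a block was an alternative. DESeq2 1.42.0 served as an alternative. The text names every member, up to 4 genes of each list with the smallest p, and the nearest profiles. A gene named beyond this was chosen after its values were seen. The members and lists were chosen with earlier results of these data known. Some genes that meet the naming rule are not reported here.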

Additional observations from a re-analysis of the deposited data

Results flagged for a closer look

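Mycn in the injured 48 h flush of mouse E1B was far from the other 8 flushes of its group, at 2.71 CPM, against 0 to 1.08 CPM in the others. This was the only such value among 24 groups of member levels looked at, and chance flags about 1 in 20 groups.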

How the results depend on the processing

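No alternative run turned a member's called direction round. Within single batches fewer members were called. Batches 1, 2 and 3 gave 1, 0 and 3 (4 with all libraries) at 48 h and 1, 1 and 2 (3) at 3 h against the uninjured flush. They gave 0, 0 and 1 (4) at 48 h against 3 h, 0, 1 and 1 (2) at 48 h against tissue, 1, 1 and 2 (5) at 3 h against tissue, and 0, 0 and 0 (2) for uninjured flush against tissue, with fewer samples by construction. Calls over all genes fell alike, to 2173, 632 and 1287 of the 5922 at 48 h against uninjured. With only the 2 groups in the fit, members called were 7 at 48 h against 3 h, 3 at 3 h against tissue and 1 for uninjured flush against tissue. The share of all genes called in these fits is not given beside them. Nor is it given for the other batch comparisons above or the leave-1-out counts below. None of these counts is therefore a result about the network. The cause of the change was not tested. Leaving out 1 library in turn gave 4 to 4 at 48 h and 2 to 4 at 3 h against uninjured, 3 to 4 at 48 h against 3 h, 2 to 2 at 48 h, 4 to 6 at 3 h and 2 to 3 uninjured against tissue. With the mouse as a replicate block, 4 members were called at 48 h against uninjured and 2 in each comparison of 48 h flush with tissue; Myc was then at 2.65 ± 0.61, and no other member call changed besides Mxd3 and Mxd1 between uninjured flush and tissue. Library totals in place of TMM moved the median over all genes by -0.129 at 3 h against uninjured, 0.241 at 48 h against 3 h, 0.25 at 48 h and 0.183 uninjured against tissue, and the share of higher calls at 48 h against tissue was 75.2%, against 61.9%. Depth limits Mycn, Mycl, Mxd3 and Mlx most, with 138, 7, 210 and 1239 counts over 26 libraries. Leaving out uninjured E1A and E1B, or injured E2A and C1A, and the batch interaction were chosen after seeing the data.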
